A study of Mus musculus with 2 samples.

Results

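Ccl5 or Gzma high Trac T cells are T lymphocytes with transcripts of the T cell receptor alpha chain (Trac) and of CD3, without Cd4 or Trdc (delta chain) transcripts, that also carry the chemokine gene Ccl5 or the granzyme gene Gzma. They were found in single-cell RNA counts from the BD Rhapsody system. The sort was for group 3 innate lymphoid cells (ILC3s) of small-intestinal lamina propria, taken from male C57BL/6 mice aged 18 months. The data form 1 group of 2 replicates, and the labels give neither a genotype, a treatment nor whether the replicates came from separate animals. The main fit took out the shift between the 2 samples. Its p-values thus rest on how far differences between cell classes vary from 1 sample to the other. This variation is pooled over all classes fitted together and may be technical. Members were chosen by measured UMI counts. A member had the replicate's own sample tag, at least 300 genes, at most 25% mitochondrial counts, at least 1 unique molecular identifier (UMI, a count of 1 captured transcript) of Trac and 1 of Cd3d, Cd3e or Cd3g, none of Trdc or Cd4, and at least 2 of Ccl5 and Gzma together. This held for 90 of 7177 kept cells, 60 of 3337 in replicate 1 and 30 of 3840 in replicate 2. The cells they are compared with, called low cells below, passed the same gate with fewer than 2 Ccl5 and Gzma UMIs, and numbered 515 in each replicate.

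Ccl5 is a chemokine that memory and effector T cells store and release to draw in other leukocytes, and Gzma is a serine protease of the granules with which killer lymphocytes act on target cells. In the gut, such transcripts are best known from CD8 T cells of the epithelium and lamina propria, many of which stay in the tissue with the help of the integrin CD103, and from T helper 1 cells, natural killer (NK) cells and group 1 innate lymphoid cells (ILC1s). ILC3s, for which the sort was made, are lymphocytes without a rearranged antigen receptor that make IL-22 and IL-17.

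Members made up 1.8% of kept cells in replicate 1 (exact Clopper-Pearson 95% interval 1.37 to 2.31) and 0.781% in replicate 2 (0.528 to 1.11). Among Trac T cells without Cd4 or Trdc UMIs they were 10.4% (8.06 to 13.2) of 575 cells and 5.50% (3.74 to 7.77) of 545 cells. The 2 shares did not overlap, but each comes from 1 library and the intervals cover counting error only. Members held 155692 and 58651 UMIs in all, with a median per cell of 2437.5 (lowest 659, highest 9779) and 1897.5 (968 to 4453). Low cells had medians of 2028 and 1795, and the part of this gap in depth in the gate was not tested. Median mitochondrial shares were 9.50% and 7.36% in members and 9.68% and 9.21% in low cells. No cell index of a member occurred in both libraries.

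Markers of T cells were present in these cells, and Kit, a marker of ILC3s, was low. All 10 T cell markers that the gate did not use (Cd8a, Cd8b1, Trbc1, Trbc2, Cd247, Lck, Cd2, Cd5, Cd6 and Thy1) were detected in members of both replicates, with a summed level of 5395 and 4399 CPM, the UMIs of a class divided by that class's total and scaled alike for all classes, in replicates 1 and 2. Low cells had 4266 and 3711 CPM of them. Kit-positive cells without Cd3, Trac or Trdc UMIs, which stand for the ILC3s of the sort, had 2607 and 2300 CPM. Kit, a growth factor receptor, was at 32.1 and 17.1 CPM in members, 72.1 and 67.3 in low cells and 827 and 803 in the Kit-positive cells, which were chosen by it. Of the 5 NK and ILC1 markers, Ncr1 was at 0 in members and at 16.1 and 12.1 CPM in low cells. The sum was 225 and 358 CPM in members and 170 and 102 in low cells. Of this sum, Fcer1g gave 193 and 290 CPM in members and 128 and 83.4 in low cells. In CD3-negative cells that passed the same Ccl5 and Gzma threshold the sum was 2775 and 1752 CPM. Markers of other lineages moved with replicate 1: B and plasma cell markers summed to 726 and 51 CPM in members and 3276 and 507 in low cells, and stromal markers to 4836 and 17 CPM in members and 3756 and 61 in low cells. Of the 753 stromal UMIs of members in replicate 1, 612 lay in 1 cell, the one with 9779 UMIs in all. Myeloid markers were at 39 and 34 CPM and epithelial markers at 0 and 34 CPM in members.

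The gate genes are given as a description, since they chose the members. Ccl5 (GRCm38 chromosome 11, 83525778 to 83530518) had 692 UMIs in members of replicate 1 and 137 in replicate 2, with a median of 5 and 4 per cell and a maximum of 69 and 20. Gzma (chromosome 13, 113093825 to 113100981) had 171 and 86 UMIs, with a median of 0 and 0.5 and a maximum of 49 and 23. Most members thus passed through Ccl5: 70% and 50% had Ccl5 without Gzma, 3.33% and 13.3% Gzma without Ccl5, and 26.7% and 36.7% both. A few cells carried most of the signal, as the 10 members with most gate UMIs held 60.3% and 64.6% of them. At the threshold, 15 members had exactly 2 UMIs and 65 low cells exactly 1, while 965 low cells had none. Cells at exactly 2 UMIs had 92.8 and 0 CPM of Il21r and 712 and 0 CPM of Cd8a in replicates 1 and 2, and cells at exactly 1 had 216 and 534 CPM of Il21r and 223 and 82.1 CPM of Cd8a. A Ccl5 UMI was found in 5.22% and 4.15% of Kit-positive cells (median depth 1946 and 1730 UMIs) and a Gzma UMI in 3.67% and 2.14%. These cells were not limited by Ccl5 or Gzma, so they can include cells that express either gene. Whether a cell with 1 such UMI is background was not tested.

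**Figure D1:**
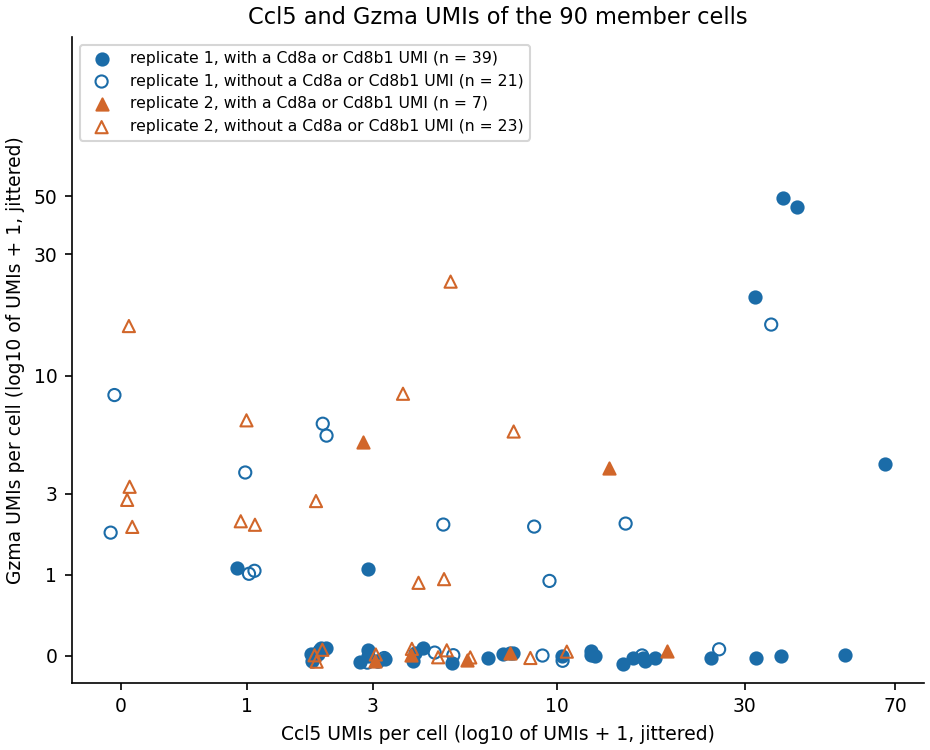
Ccl5 UMIs (x axis) and Gzma UMIs (y axis) of each of the 90 member cells, both as log10 of UMIs + 1 with small jitter; circles are replicate 1, triangles replicate 2, and filled symbols mark cells with a Cd8a or Cd8b1 UMI. Most cells lie along the Ccl5 axis with 0 Gzma UMIs, and filled symbols are frequent in replicate 1 (39 of 60 cells) and few in replicate 2 (7 of 30).

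Members were partly CD8 T cells, and to a different extent in the 2 replicates. Cd8a and Cd8b1 encode the CD8 alpha and beta chains that help T cells read MHC class I, and neither was used by the gate. A UMI of either was found in 65% of members of replicate 1 (51.6 to 76.9) and 23.3% of replicate 2 (9.93 to 42.3), against 13.0% and 5.83% of low cells. UMIs of both chains, the mark of the alpha-beta form of CD8, were found in 46.7% and 13.3%, Cd8a without Cd8b1 in 16.7% and 6.67%, and neither in 35% and 76.7%. For Cd8a alone the shares were 63.3% and 20% in members and 12.0% and 4.85% in low cells, and with each cell thinned to 1000 UMIs 46.6% and 13.8% against 9.16% and 3.59%. In Kit-positive cells, which should lack the gene, Cd8a was found in 0.333% and 0.119%.

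Cd4, the gene of the coreceptor of T helper cells, was caught with few UMIs per cell. Trac T cells that did have a Cd4 UMI numbered 106 and 51, with a median of 2 Cd4 UMIs, and in 39 and 25 of them that UMI was the only one. Of these Cd4-positive cells, 41.5% (32.0 to 51.5) and 41.2% (27.6 to 55.8) carried 2 or more Ccl5 and Gzma UMIs. Among the Trac T cells without Cd4 UMIs the shares were 10.4% and 5.50%. How many of the members without Cd8 UMIs are CD4 T cells in which Cd4 was missed was not tested.

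Against low cells, members had more granzyme B, CD8, CD103, IL-21 receptor, IL-12 receptor and XCL1 transcripts, and fewer Tmem176b, Il1r1, Blk, Zbtb16, S100a6 and Lgals1 transcripts. With edgeR's quasi-likelihood test on sums per replicate and cell class, 3817 genes outside the gate were tested at a Benjamini-Hochberg adjusted p of 0.05. Of these, 101 were higher in members (2.65% of tested genes) and 148 lower (3.88%), or 6.52% in either direction. The median log2 ratio over all tested genes was 0.00, and 245 of the 249 called genes had the same sign in both replicates. The calls were made from both replicates, so this agreement is no separate check. Depth limits the count: 1920 tested genes had fewer than 20 member UMIs, and 83 of the calls were among them. Without the sample as a block the counts fell to 22 higher and 9 lower. The same cells gave the gate and the test, so a gene that goes with Ccl5 or Gzma in single cells is parted by the gate itself. Of 57 called genes named below by a fixed rule, 18 passed without the block and 37 with DESeq2, and further genes of the lists were named after their values were seen.

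**Figure D2:**
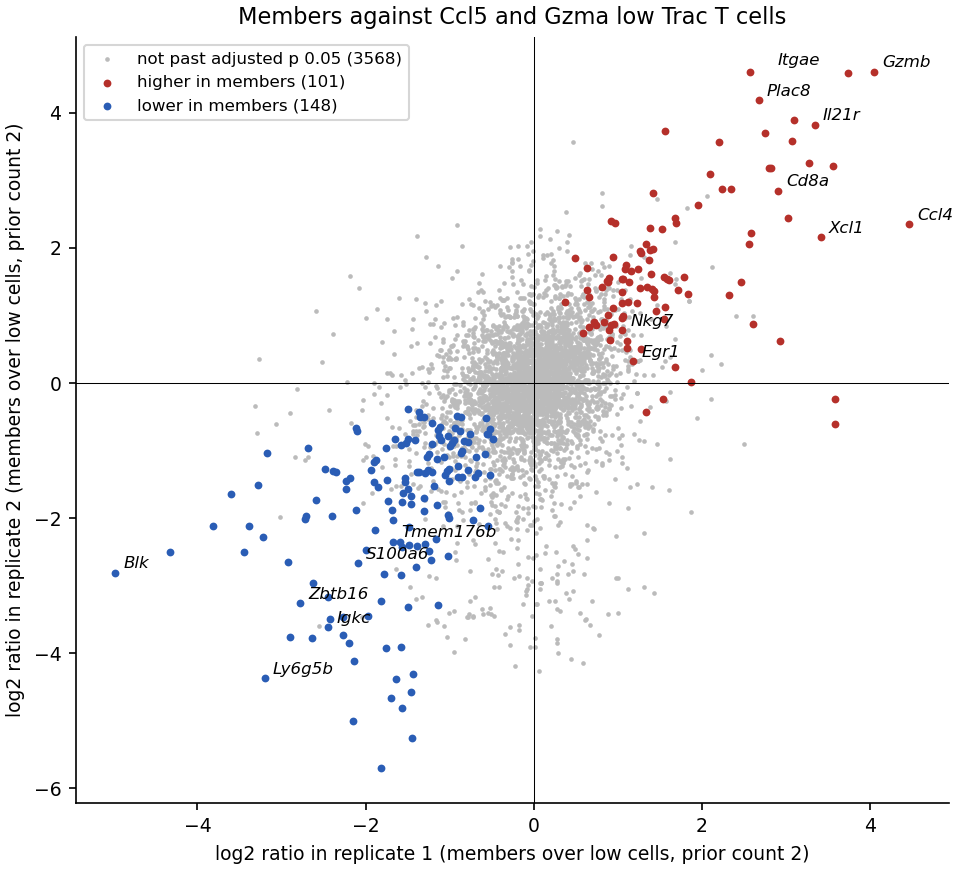
Log2 ratio of members over low cells in replicate 1 (x axis) and replicate 2 (y axis) for the 3817 tested genes, each point a gene; red marks the 101 genes higher and blue the 148 lower in members, grey the rest. Gzmb, Itgae and Il21r lie at the upper right and Blk and Ly6g5b at the lower left, while Egr1 lies near 0 in replicate 2.

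Cytotoxic granule genes were among the higher genes. Gzmb (chromosome 14, 56258838 to 56262260), a granzyme that starts apoptosis in target cells, stood at 1163 and 1603 CPM in members of replicates 1 and 2 and at 63.6 and 55.3 CPM in low cells. The groups did not overlap, and the log2 ratio was 4.43 ± 0.29 (SE, adjusted p = 1.3e-08). It was unevenly spread, as 30% and 46.7% of members had a Gzmb UMI and 5 members held 71.8% and 86.2% of the Gzmb UMIs. Gzmb went with Gzma within cells: 61.1% and 66.7% of members with a Gzma UMI had one of Gzmb, against 16.7% and 26.7% of members without. Of the 13 granule and killing genes tested, 5 were higher (Gzmb, Gzmc, Nkg7, Cst7 and Ctsc) and 0 lower, with a median log2 ratio of 0.83. Nkg7, a granule membrane protein, was at 623 and 443 CPM against 293 and 237 (0.96 ± 0.22, adjusted p = 0.0089). Gzmc, a further granzyme, was at 45.0 and 102 CPM against 5.94 and 6.03 (3.28 ± 0.64, adjusted p = 0.0029), on 13 member UMIs. Cst7 (1.42 ± 0.38, adjusted p = 0.025) and Ctsc, which encodes the protease that activates granzymes (1.31 ± 0.36, adjusted p = 0.031), were higher by less. Prf1, the pore-forming perforin, did not pass at 32.1 and 68.2 CPM against 9.33 and 13.1 (1.91 ± 0.80, adjusted p = 0.19), nor did Fasl (0.28 ± 0.47, adjusted p = 0.82). DESeq2 called 3 genes of the list higher and 0 lower, and at an unadjusted p under 0.05 edgeR gave 7 and 0. The calls of Cst7 and Ctsc ended with DESeq2 and the stricter cell filter among others, the Gzmc call with thinned cells and with a Cd8 UMI required, and the Nkg7 call with thinned cells, without the filter on low counts, without the block, with Gzma alone as the gate and with a Cd8 UMI required.

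The 250 bases before the start of Gzma, Gzmb and Il21r are shown because these genes were high in members and each window holds the core letters bound by Runx factors, the family of Runx3, which directs killer T cell genes. They were picked after the matches were seen. The windows of Nkg7 and Xcl1, not shown, hold such a match too, and that of Cd8a holds none. The sequences are from RefSeq on GRCm38.p6, read 5′ to 3′ on the gene's strand, with capitals on each match to TGTGGT or its reverse complement ACCACA. Gzma spans chr13:113100982-113101231 on the minus strand, Gzmb chr14:56262335-56262584 on the minus strand and Il21r chr7:125603179-125603428 on the plus strand.
Gzma: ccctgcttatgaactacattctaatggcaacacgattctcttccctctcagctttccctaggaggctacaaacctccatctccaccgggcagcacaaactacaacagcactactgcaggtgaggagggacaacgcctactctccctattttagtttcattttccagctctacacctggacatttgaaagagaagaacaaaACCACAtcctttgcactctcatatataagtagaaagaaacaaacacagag
Gzmb: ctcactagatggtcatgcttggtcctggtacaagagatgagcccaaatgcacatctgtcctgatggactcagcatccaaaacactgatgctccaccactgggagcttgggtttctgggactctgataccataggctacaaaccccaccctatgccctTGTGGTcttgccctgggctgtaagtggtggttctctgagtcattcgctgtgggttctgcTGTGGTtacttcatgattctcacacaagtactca
Il21r: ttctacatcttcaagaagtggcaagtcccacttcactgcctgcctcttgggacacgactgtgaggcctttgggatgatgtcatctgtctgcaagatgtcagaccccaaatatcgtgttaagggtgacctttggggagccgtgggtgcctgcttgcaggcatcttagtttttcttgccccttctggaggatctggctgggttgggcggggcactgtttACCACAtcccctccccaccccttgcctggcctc
Counted back from the RefSeq start, the match of Gzma begins 50 bases upstream, those of Gzmb 93 and 34 bases and that of Il21r 33 bases. Such matches are common: 3832 of 27025 promoter windows of this length, or 14.2%, hold one on either strand. The share was 10.4% of the 3011 tested genes with an entry, 26.1% of the 69 of 101 higher genes with an entry (18 genes) and 14.7% of the 109 of 148 lower genes (16 genes). For the T-box core GGTGTG or CACACC, which none of the 3 windows holds, the shares were 16.2% of all, 14.4% of tested, 23.2% of higher and 19.3% of lower genes. The motifs share letters, so a stretch of 8 bases can match both, and they were counted separately. A match is a description of letters, not a bound site. Runx3 transcripts themselves were lower in members, at 360 and 733 CPM against 683 and 1077 in low cells (log2 ratio -0.83 ± 0.23, adjusted p = 0.036), a call that ended with DESeq2, with the stricter cell filter, without the block and with Gzma alone as the gate.

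Genes of the type 1 axis, through which IL-12 and interferon gamma drive killer and T helper 1 responses, were higher in part. Of 15 tested, 5 were higher (Stat4, Il12rb2, Xcl1, Ccl4 and Hopx) and 0 lower, with a median log2 ratio of 0.55. With edgeR 8 and 3 had an unadjusted p under 0.05, and DESeq2 called 4 higher and 0 lower. Il12rb2, the inducible chain of the IL-12 receptor, was at 167 and 460 CPM in members and 14.4 and 30.1 CPM in low cells (3.60 ± 0.38, adjusted p = 4.8e-06). Xcl1, a chemokine that draws in cross-presenting dendritic cells, was at 469 and 239 CPM against 38.2 and 45.2 (3.17 ± 0.32, adjusted p = 3.1e-06). Both genes were separated in both replicates, Il12rb2 with more in replicate 2 and Xcl1 with more in replicate 1. Ccl4, a chemokine of activated lymphocytes, was at 238 and 119 CPM against 5.09 and 17.1 (4.28 ± 0.48, adjusted p = 8.6e-06). It was found in only 10 and 3 members, with 7 UMIs in replicate 2, and 1 cell held 29.5% of its member UMIs. Hopx, a cofactor of effector T cells, was at 148 and 409 against 50.9 and 49.2 (2.19 ± 0.35, adjusted p = 0.00049). The Ccl4 call ended with Gzma alone as the gate and with thinned cells, and the Hopx call without the block and with a Cd8 UMI required. Ifng itself did not pass, at 161 and 119 CPM against 120 and 134 (0.16 ± 0.32, adjusted p = 0.85), nor did Tbx21, which encodes T-bet (0.10 ± 0.59, adjusted p = 0.96, on 13 member UMIs). Il21r, the receptor of the cytokine IL-21, which sustains CD8 effector cells, was even between replicates, at 848 and 835 CPM against 77.2 and 49.2 (3.66 ± 0.26, adjusted p = 1.8e-08). The strongest cell held 5.52% of its member UMIs. Gramd3 followed the same pattern at 347 and 324 CPM against 23.7 and 27.1 (3.67 ± 0.30, adjusted p = 1.9e-07).

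Some receptors of NK cells were higher in members, on few molecules. Of 16 killer lectin and NK receptor genes tested, 5 were higher (Klrd1, Klrc1, Klre1, Cd160 and Lilrb4a) and 1, Klrb1b, lower, with a median log2 ratio of 1.10, and DESeq2 called 4 higher and 1 lower. Cd160, a receptor of intraepithelial T cells, was at 295 and 68.2 CPM against 53.4 and 22.1 (2.36 ± 0.41, adjusted p = 0.0010). Klrc1, which encodes the inhibitory receptor NKG2A, had 18 UMIs in 7 members, at 45.0 and 188 CPM against 1.70 and 8.04 (4.28 ± 0.84, adjusted p = 0.0031). Its partner Klrd1 (CD94) had 10 member UMIs, all in replicate 1 (adjusted p = 0.027), and its log2 ratio in replicate 2 alone was -0.60. The calls of Cd160, Klrc1, Klrd1, Lilrb4a and Klrb1b ended without the block and with a Cd8 UMI required, among others, that of Lilrb4a also with DESeq2. Klrb1b, an inhibitory lectin of NK cells and ILCs, was lower at 64.2 and 85.2 against 185 and 265 CPM (-1.69 ± 0.37, adjusted p = 0.0074).

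Of 18 genes of CD8 and T cell receptor signalling, 5 were higher (Cd8a, Cd8b1, Cd247, Cd2 and Trat1) and 1, Thy1, lower, with a median log2 ratio of 0.44. Cd8a (chromosome 6, 71373427 to 71379173) was at 918 and 273 CPM in members and 116 and 30.1 in low cells (2.97 ± 0.27, adjusted p = 1.8e-06). Cd8b1 (chromosome 6, 71322788 to 71337494) was at 475 and 136 CPM against 43.3 and 8.04 (3.54 ± 0.39, adjusted p = 7.0e-06). In both genes members of replicate 1 stood above members of replicate 2, and members stood above low cells within each replicate. With Gzma alone as the gate both calls ended, and the Cd8a call also without the block. Trat1, an adaptor that stabilises the receptor complex, went the other way between replicates, at 231 and 477 CPM against 45.0 and 32.1 (2.97 ± 0.35, adjusted p = 1.4e-05). Cd2, an adhesion receptor of T cells, was at 193 and 222 against 55.1 and 33.2 (2.11 ± 0.40, adjusted p = 0.0024), and Cd247, the zeta chain, had a log2 ratio of 1.45 ± 0.36 (adjusted p = 0.018), lost with DESeq2 and 6 other alternatives. Ms4a4b, a membrane protein of T cells outside the list, was at 392 and 460 against 60.2 and 12.1 (3.41 ± 0.40, adjusted p = 1.4e-05). The calls of Trat1, Cd2 and Ms4a4b ended when a Cd8 UMI was required of both classes.

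Transcripts of receptor chains that the gate did not use were found in members. A Trbc2 UMI was found in 73 of 90 members and a Trbc1 UMI in 44. These beta chain constant transcripts do not part the classes here, as Trbc2 was at 931 and 1398 CPM in members and 1007 and 882 in Trdc T cells, and Trbc1 at 533 and 443 in members, 513 and 376 in Trdc T cells and 776 and 855 in the CD3-negative cells. A Trdv UMI was found in 0 of 60 and 0 of 30 members, and in 41.3% and 30.6% of Trdc T cells. The gate had already left out cells with a Trdc UMI, and a count of 0 allows shares of up to 5% and 10% of cells with a UMI, for counting error only. Gamma chain transcripts, which alpha-beta T cells can also make, were found as well: Tcrg-C4 was found in 32.2% of members and 11.4% of low cells over both replicates, Trgv2 in 25.6% and 9.42%, and Tcrg-C2 in 40% and 27.7%. Tcrg-C1 went the other way, in 32.2% of members and 56.9% of low cells. Of these, Tcrg-C4 was higher by the test, at 257 and 188 CPM against 95.8 and 61.3 (1.45 ± 0.28, adjusted p = 0.0028). How reads were assigned among related gamma chain segments was not tested, so these counts are uncertain. Trav and Trbv segments were seldom caught, in 1 and 2 and in 4 and 1 members, so clonal relations could not be read.

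Tissue residence and gut homing genes parted in both directions, with 6 of 21 tested higher and 5 lower (median log2 ratio -0.12). Itgae (chromosome 11, 73090583 to 73147446), the CD103 integrin chain that binds E-cadherin on the epithelium, was at 462 and 170 CPM in members against 28.8 and 1.00 in low cells (4.36 ± 0.42, adjusted p = 1.8e-06). It was found in 55% and 23.3% of members and 4.08% and 0.194% of low cells, and thinned to 1000 UMIs in 27.6% and 13.8% against 2.19% and 0.200%. Ccr9, which draws lymphocytes to the small bowel, was at 263 and 358 against 99.2 and 75.3 CPM (1.68 ± 0.26, adjusted p = 0.00044). Gpr55, a lipid receptor of intraepithelial lymphocytes, was at 103 and 239 against 15.3 and 25.1 (2.96 ± 0.41, adjusted p = 9.4e-05), and Gpr18 and Rgs1 were higher as well. Lower were Cxcr6, at 308 and 1057 CPM against 885 and 1822 (-1.20 ± 0.21, adjusted p = 0.0011), Ccr2, at 83.5 and 34.1 against 243 and 369 (-2.07 ± 0.36, adjusted p = 0.0011), the oxysterol receptor gene Gpr183 (-1.64 ± 0.24, adjusted p = 0.00022), Cd44 and Runx3. The Itgae call ended with Gzma alone as the gate, that of Gpr55 with a Cd8 UMI required and without the block, that of Ccr9 with a Cd8 UMI required, and that of Cxcr6 without the block and with Gzma alone as the gate.

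Among the lists, the type 17 programme had the most lower genes. Of 20 genes tested, 9 were lower (among them Il23r, Il1r1, Tmem176a, Tmem176b, Csf2, Blk, Maf and Tnfsf11) and 1, Ahr, higher, with a median log2 ratio of -1.56. Tmem176b, a channel-like membrane protein, was at 501 and 205 CPM in members and 1586 and 990 in low cells (-1.89 ± 0.20, adjusted p = 4.8e-06). Its neighbour Tmem176a was at 392 and 239 against 1444 and 1026 (-2.05 ± 0.23, adjusted p = 7.7e-06), but the 2 genes overlap on opposite strands, and whether counting used the strand is not given in the sources used here. Il1r1, the IL-1 receptor, was at 45.0 and 85.2 against 323 and 327 CPM (-2.57 ± 0.38, adjusted p = 0.00022). Blk, a Src family kinase of IL-17-producing T cells, had 2 member UMIs against 462 in low cells, a level 22.8-fold lower in members with a counting interval of 6.27 to 189 (adjusted p = 0.00025). Il22 did not pass at 430 and 153 CPM against 583 and 462 (-0.69 ± 0.35, adjusted p = 0.31), and neither did Il17a on 4 member UMIs (adjusted p = 0.075). Il22 passed as lower without the filter on low counts and with Gzma alone as the gate, and Il17a with a gate of 4 UMIs, with low cells at 0 gate UMIs and with a Cd8 UMI required. The Maf call ended with Gzma alone as the gate, with thinned cells and without the block. The Ahr call ended with DESeq2 and 7 other alternatives.

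Innate-like T cell genes went both ways, with 3 of 9 tested lower and 1 higher and a median log2 ratio of 0.07; at an unadjusted p under 0.05, 4 were higher and 4 lower. Zbtb16, which encodes PLZF, the factor of invariant and other innate-like T cells, was at 12.8 and 34.1 CPM in members against 120 and 354 in low cells (-3.35 ± 0.47, adjusted p = 0.00011), and it was found in 3.33% of members of each replicate against 19.6% and 41.2% of low cells. The Zbtb16 call ended without the block and with Gzma alone as the gate. Pxdc1 was at 122 and 170 against 657 and 635 (-2.29 ± 0.27, adjusted p = 1.1e-05) and Tmem64 at 116 and 324 against 538 and 803 (-1.85 ± 0.26, adjusted p = 0.00016). Plac8 was the higher gene of the set, at 450 and 1057 against 64.5 and 48.2 CPM (3.49 ± 0.39, adjusted p = 7.7e-06). Of 14 genes of the cytoskeleton and migration list, 8 were lower and 0 higher (median -1.03), with 8 and 0 at an unadjusted p under 0.05 in edgeR and 5 and 0 called by DESeq2. S100a6, a calcium-binding protein, was at 173 and 85.2 against 747 and 533 (-2.30 ± 0.26, adjusted p = 9.1e-06), and the galectin gene Lgals1 at 96.3 and 102 against 328 and 334 (-1.83 ± 0.31, adjusted p = 0.00088). Both were separated in both replicates. S100a4 had 2 member UMIs against 227 in low cells, 11.2-fold lower with a counting interval of 3.06 to 92.9.

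Other lower genes of large size rested on 1 or 2 member UMIs each: Hbegf, an epithelial growth factor (24.2-fold, counting interval 4.31 to 962), Pcp4 (18.0-fold, 3.20 to 716), Pard3 (17.4-fold, 3.09 to 693), Ly6g5b (15.1-fold, 4.14 to 125), Tgtp2 (15-fold, 2.65 to 596), Plxnd1 (11.8-fold, 2.08 to 471) and Ramp1 (9.91-fold, 2.71 to 82.4). Their sizes are therefore poorly known. The immunoglobulin gene Igkc, a plasma cell transcript, was lower (-3.64 ± 0.92, adjusted p = 0.019) at 430 and 34.1 against 2336 and 453 CPM. With each gene held to at most 5 UMIs per cell its log2 ratio was 0.08.

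The remaining lists had few calls each. In each of them with a call the share called was above the 6.52% of all tested genes, though on few genes. Of 11 checkpoint and costimulatory genes, Tigit (3.66 ± 0.61, adjusted p = 0.00076) and Cd7 (2.53 ± 0.37, adjusted p = 0.00020) were higher and Icos lower, at 694 and 1927 against 2166 and 3188 CPM (-1.24 ± 0.19, adjusted p = 0.00029). Of 7 naive and memory genes, Satb1 was higher (0.99 ± 0.26, adjusted p = 0.025), and Tcf7 did not pass (0.14 ± 0.27). Of 23 immediate early genes, 2 were higher (Nr4a2 and Egr1) and 2 lower (Nr4a1 and Zfp36l1). Egr1 was at 1008 and 68.2 CPM against 434 and 49.2, but 67.1% of its member UMIs came from 1 cell, and its call ended without cells of more than 3 times the median UMIs. Of 22 interferon and MHC class I genes, Nlrc5 was higher (1.12 ± 0.32, adjusted p = 0.037) and Irf1 and Ly6e lower. Of 12 heat shock genes 1 was lower, Hspa1b (-2.74 ± 0.71, adjusted p = 0.022), and of 12 glycolysis genes 1 was lower, Hk2 (-1.33 ± 0.23, adjusted p = 0.00096). The calls of Satb1, Nlrc5 and Hspa1b each ended under 6 or 7 alternatives, DESeq2 among them, that of Cd7 with DESeq2 and without the block, and those of Icos and Hk2 without the block. Those of Irf1, Ly6e, Nr4a1 and Zfp36l1 ended with DESeq2 and without the block, among others. The Nr4a2 call ended without the block and with Gzma alone as the gate. At an unadjusted p under 0.05 edgeR gave 2 higher and 8 lower immediate early genes, and 0 higher and 5 lower glycolysis genes. DESeq2 called 0 genes of the naive, interferon and heat shock lists. It called 1 higher immediate early gene, 1 lower glycolysis gene and 1 checkpoint gene in each direction. Of the 7 proliferation genes tested, edgeR called 0 in either direction, with 0 at an unadjusted p under 0.05 and 0 by DESeq2. Of 12 genes of the Cxxc1 and histone methylation list it called 0 as well, with 2 higher at an unadjusted p under 0.05 and 0 by DESeq2. Cxxc1, the subject of the series, stood at 89.9 and 34.1 CPM in members and 85.7 and 63.3 in low cells on 16 member UMIs (-0.15 ± 0.42, adjusted p = 0.91).

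**Figure D3:**
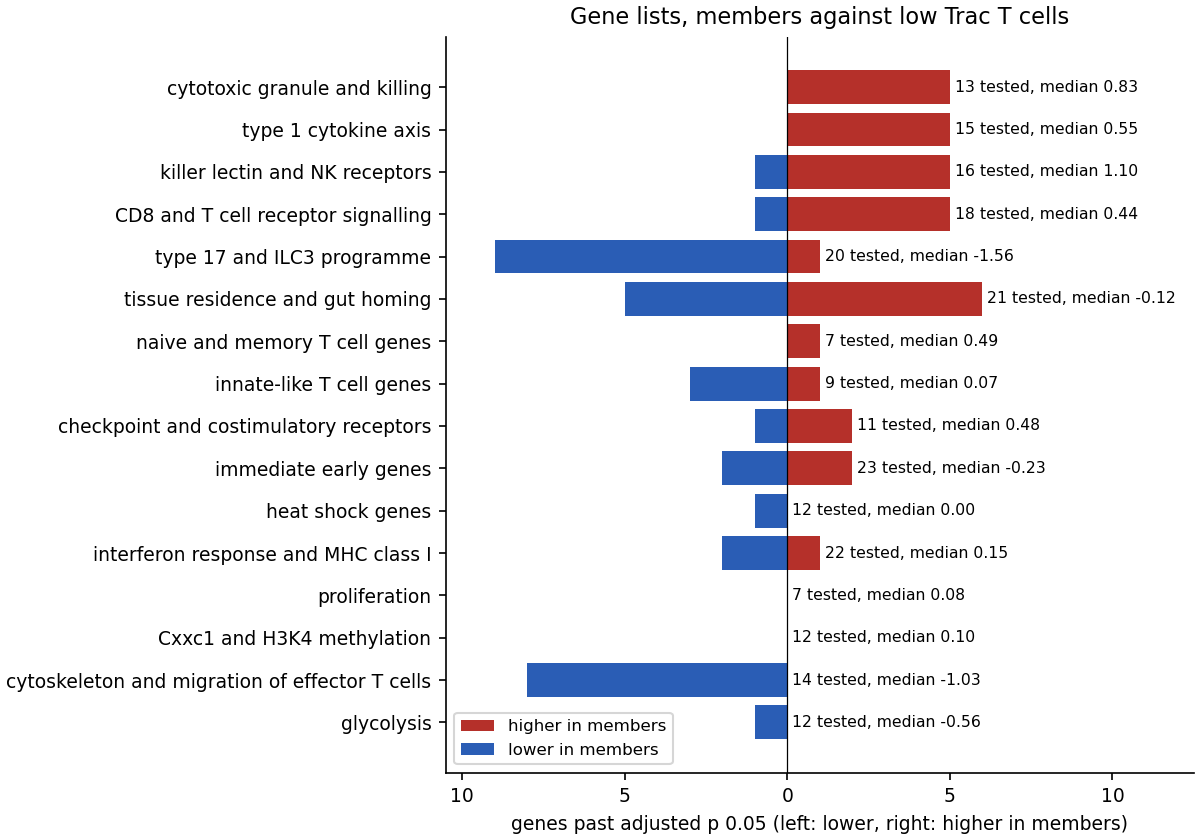
Number of genes higher (right, red) and lower (left, blue) in members than in low cells at an adjusted p of 0.05, for the 16 gene lists, with the number tested and the median log2 ratio beside each bar. The tissue residence and gut homing list reaches 6 on the right and 5 on the left. The cytotoxic, type 1, NK receptor and CD8 lists reach 5 on the right, and the type 17 list 9 and the cytoskeleton list 8 on the left.

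For some genes the level graded with the number of Ccl5 and Gzma UMIs per cell. Low cells with 0 gate UMIs numbered 463 and 502, those with 1 numbered 52 and 13, and members with 2 to 3, 4 to 7 and 8 or more numbered 19, 12 and 29 in replicate 1 and 10, 11 and 9 in replicate 2. Over these bins Il21r stood at 58.7, 216, 465, 816 and 1134 CPM in replicate 1 and at 37.1, 534, 631, 820 and 1119 in replicate 2. The step at the gate rests on pooling cells at 2 UMIs with cells at 3. Cells at exactly 2, which numbered 11 and 4, had less Il21r than cells at exactly 1 in both replicates, as given above. Tmem176b stood over the same bins at 1622, 1316, 911, 668 and 147 CPM in replicate 1 and at 996, 739, 451, 0 and 118 in replicate 2, where the last bin holds 2 UMIs and was not the lowest. Pxdc1 stood at 695, 374, 297, 74.2 and 13.3 CPM in replicate 1 and at 642, 369, 271, 205 and 0 in replicate 2. Gzmb was not graded in this way, as it stood at 324 and 1601 CPM in cells with 1 gate UMI, at 223 and 513 in the bin of 4 to 7 and at 2269 and 3947 in the top bin. These bins are cut from the gate genes and deeper cells reach higher bins, so no test was made.

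**Figure D4:**
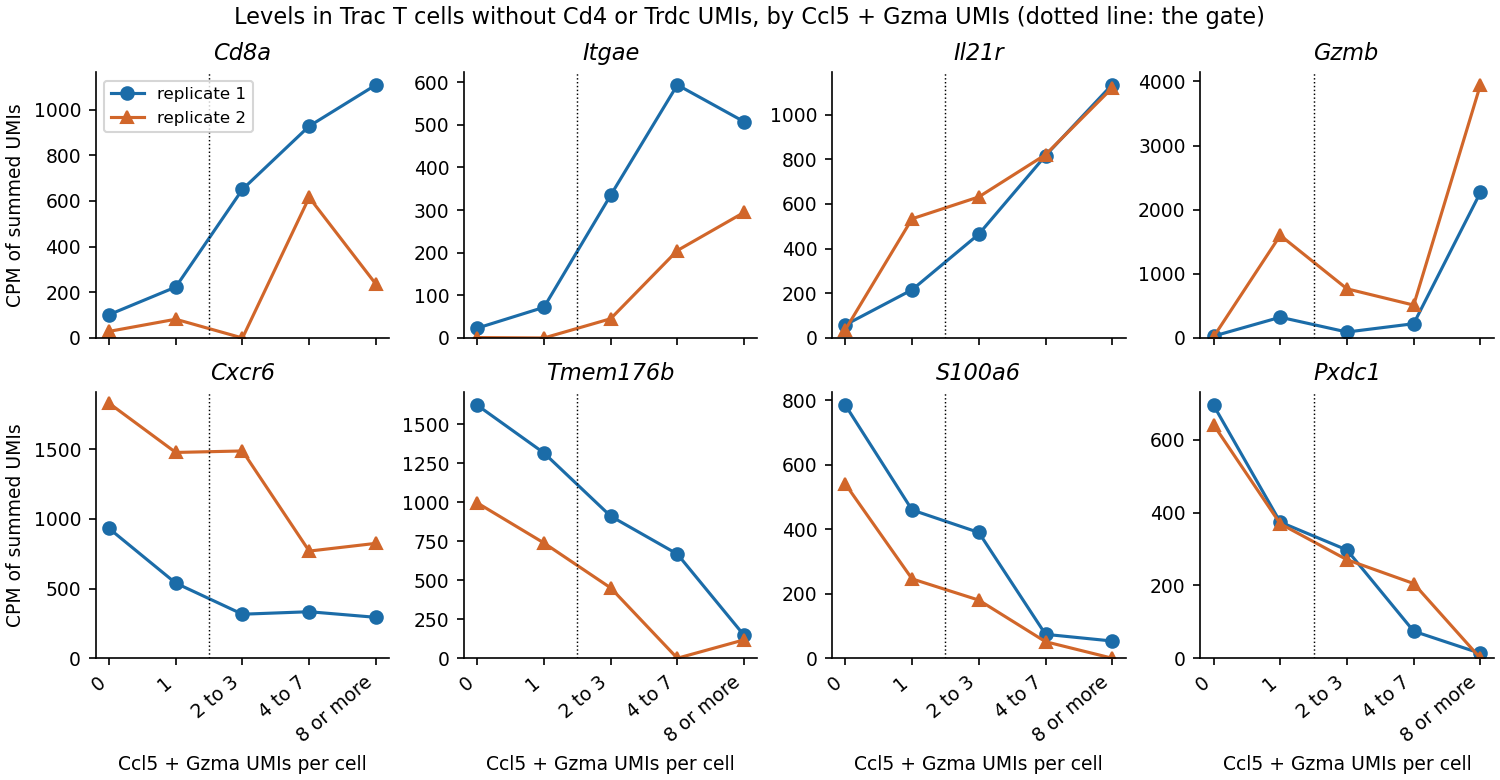
CPM of summed UMIs (y axis) in Trac T cells without Cd4 or Trdc UMIs, by the Ccl5 and Gzma UMIs per cell (x axis, 5 bins); blue circles are replicate 1, orange triangles replicate 2, and the dotted line is the gate at 2 UMIs. Il21r is higher with each bin in both replicates and Pxdc1 lower with each bin. Cells at exactly 2 UMIs, not drawn apart here, had less Il21r than cells at 1. Gzmb is highest in the bin of 8 or more in both replicates and not ordered over the other bins.

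Among members, those with and without Cd8 UMIs differed in several genes, described here without a test. Members with a Cd8 UMI numbered 39 and 7 (median 2554 and 2062 UMIs per cell) and those without 21 and 23 (1990 and 1823). Itgae was at 602 and 272 CPM with and 113 and 137 without Cd8 UMIs. Cd7, a costimulatory receptor of intraepithelial lymphocytes, was at 862 and 408 against 203 and 137. Cxcr6 went the other way, at 162 and 340 with and 676 and 1297 without. Gzmb had no common direction, at 584 and 2378 with and 2614 and 1343 without. Il21r was at 925 and 951 with and 653 and 797 without.

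Several genes that were higher in members were high in Cd4-positive Trac T cells too, as their levels in the other T cell classes show; no difference from those classes was tested. Cd8a was at 918 and 273 CPM in members, 57.3 and 4.82 in Trdc T cells and 0 in Cd4-positive Trac T cells. Itgae was at 462 and 170 in members, 80.2 and 50.5 in Cd4-positive cells and 46.6 and 19.3 in Trdc T cells, with no overlap between members and either class. Il21r was at 645 and 868 in Cd4-positive cells and so overlapped with members at 848 and 835. Gzmb was at 734 and 1292 in Cd4-positive cells, overlapping with members, and at 176 and 289 in Trdc T cells. Trat1 was at 365 and 737 in Cd4-positive cells, overlapping with the members' range. Il12rb2, at 465 and 595, and Ccr9, at 746 and 656, stood above members in Cd4-positive cells. Gpr55, Tigit, Hopx, Ms4a4b and Xcl1 overlapped with members there, and so did the low S100a6 (148 and 90.8) and Pxdc1 (172 and 161). Gramd3 (176 and 172), Plac8 (269 and 121) and Ccl4 (12.0 and 20.2) stood below members without overlap. Zbtb16 was at 24.1 and 40.4 in Cd4-positive and 86.0 and 207 in Trdc T cells, and members overlapped with the former. Blk was highest in Trdc T cells among these classes, at 495 and 453 CPM.

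**Figure D5:**
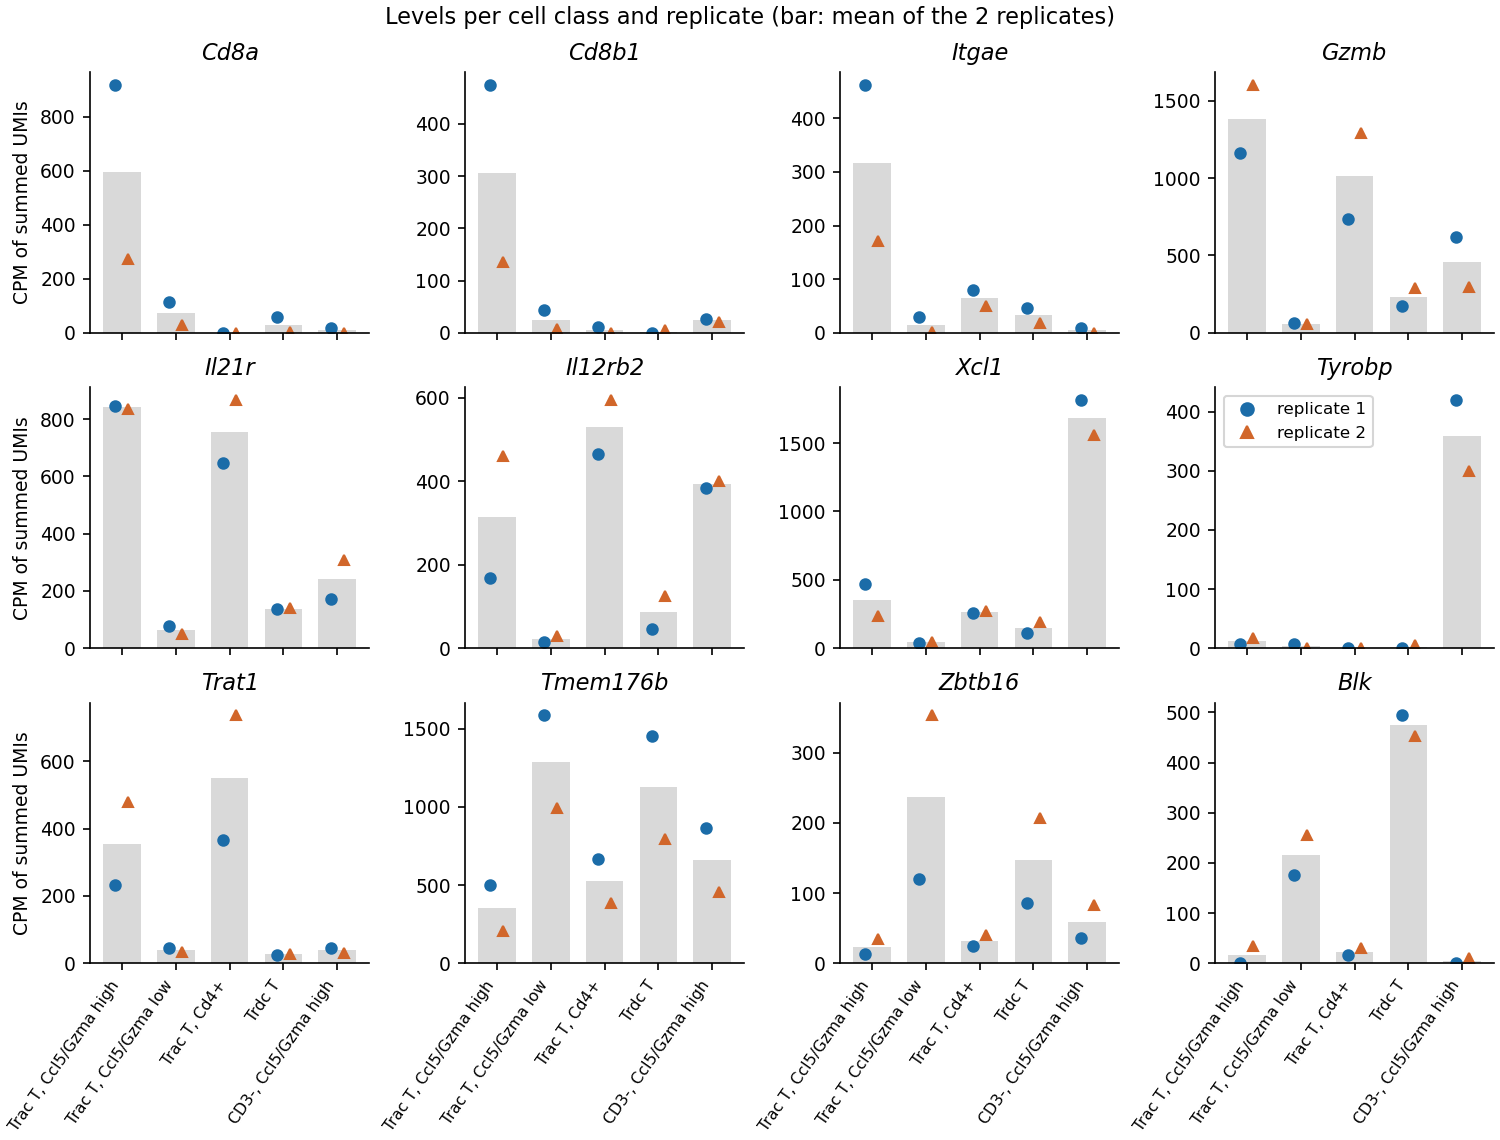
CPM of summed UMIs (y axis) of 12 genes in 5 cell classes (x axis); blue circles are replicate 1, orange triangles replicate 2, and bars the mean of both. Cd8a, Cd8b1 and Itgae are highest in members, and Il21r, Gzmb and Trat1 are high in members and Cd4-positive cells alike. Il12rb2 is highest in Cd4-positive cells, and Tyrobp is high in the CD3-negative class.

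The CD3-negative cells with at least 2 Ccl5 and Gzma UMIs numbered 53 and 42. They share the gate signal with members but had no UMI of Trac, Trdc or the Cd3 genes. Whether such transcripts were missed in some of them was not tested. Against them 67 genes were higher in members (1.76% of the 3817 tested) and 61 lower (1.6%), or 3.35% in either direction. The contrast shares the member sums with that against low cells. Of the gene lists, CD8 and T cell receptor signalling had the most higher genes, with 11 of 18 higher and 0 lower (median log2 ratio 1.23), against a median of -0.02 over all tested genes. The gates asked for Trac and Cd3 UMIs in members and for none in the CD3-negative cells. Higher T cell genes in members thus follow from the gates and are given as a description. DESeq2 also called 11 and 0, and 15 and 1 had an unadjusted p under 0.05. Cd8a had 159 UMIs in members and 2 in the CD3-negative cells, 76.6-fold higher with a counting interval of 20.9 to 638 (adjusted p = 2.7e-06). Itgae had 82 against 1 UMIs, 79.0-fold higher with an interval of 13.8 to 3159 (adjusted p = 0.00021). Lat, the adaptor that links the receptor to downstream signalling, was at 417 and 341 CPM against 27.4 and 30.9 (3.75 ± 0.42, adjusted p = 2.0e-05). Cd40lg, the ligand through which T cells help other immune cells, had 47 UMIs against 1, 45.3-fold higher with an interval of 7.74 to 1827 (adjusted p = 0.00024). Tcrg-C2, Cd8b1, Cd2 and Gm47015 completed the genes of largest size. Ctla4 and Il21r were higher too, Il21r at 848 and 835 against 173 and 309 CPM (1.85 ± 0.30, adjusted p = 0.00068), and so was Gzmb, at 621 and 299 CPM in the CD3-negative cells (1.53 ± 0.30, adjusted p = 0.0048). The Il21r call ended with thinned cells and with Gzma alone as the gate. The Gzmb call ended when each gene was held to at most 5 UMIs per cell, with thinned cells and without the block. The calls of Itgae and Cd8a ended without the block, that of Itgae also with Gzma alone as the gate and that of Cd40lg with thinned cells. Of the 16 genes of largest size in both directions, 8 kept their call without the block and 7 with Gzma alone as the gate.

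Lower in members were signalling adaptors and receptors of innate lymphocytes. Tyrobp, the adaptor DAP12, had 2 member UMIs against 75, 38.9-fold lower with a counting interval of 10.4 to 327 (adjusted p = 0.00057). Ncr1, the receptor NKp46, had no member UMI and was at least 11.1-fold lower, with a floor of 3 UMIs over the members. Fcer1g, an adaptor of NK receptors, was at 193 and 290 CPM against 1881 and 1268 (-2.86 ± 0.26, adjusted p = 2.3e-06), and Klrb1b at 64.2 and 85.2 against 1187 and 1113 (-3.98 ± 0.33, adjusted p = 8.2e-07). The chemokine genes Ccl3, at 45.0 and 17.1 against 557 and 835 CPM (-4.09 ± 0.43, adjusted p = 9.1e-06), Ccl4 (-2.31 ± 0.33, adjusted p = 0.00024) and Xcl1 (-2.09 ± 0.27, adjusted p = 6.7e-05) were lower in members here, while Ccl4 and Xcl1 were higher in members than in low cells. With Gzma alone as the gate the calls of Tyrobp, Ncr1, Ccl3, Xcl1 and H2-Aa ended, and without the block those of Ncr1, Ccl4 and H2-Aa. The MHC class II genes H2-Aa, H2-Ab1 and Cd74 were lower as well, H2-Aa on 2 member UMIs against 114 (59.1-fold, counting interval 16.0 to 494). Few cells carry this, as 97 of the 114 UMIs lay in 3 CD3-negative cells of replicate 2. Nkg7 did not pass (-0.58 ± 0.23, adjusted p = 0.24). Of the 67 higher genes, 21 had more than 50% of their member UMIs from 1 cell, and 7 of 8 stromal markers tested were among the higher genes in the same replicate that holds the cell with 612 stromal UMIs. Without cells of more than 3 times the median UMIs, which leaves out that cell, 47 genes were higher and 69 lower. With cells thinned to 1000 UMIs, 8 were higher and 20 lower.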

How the data were processed

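Per the file headers, UMI counts per cell and gene were made by the authors with version 1.8 of BD's WTA Multiplex Rhapsody pipeline, on GRCm38 with GENCODE M19. Counts are not normalized. The submitters' processing notes list HISAT2 2.0.5, Bowtie2 and the builds GRCm38.p6 and mm10 as well. Sample tag calls are in a separate deposited file; cells of tag 6 (replicate 1) and tag 12 (replicate 2) were used, and cells of other tags, multiplets and undetermined cells were not. No doublet caller was run. Own-tag cells held 7011649 and 6845914 UMIs, and 3337 of 3427 and 3840 of 3954 passed the filters. The libraries had 10 cell indices in common.

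Counts were summed per replicate for 5 cell classes (members, low cells, Cd4-positive Trac T cells, Trdc T cells, CD3-negative Ccl5 or Gzma high cells) and fitted together with edgeR 4.0.16 (R 4.3.3): TMM, filterByExpr, quasi-likelihood test, sample as a block because the classes share their library, 4 residual degrees of freedom. P-values were adjusted over 3817 genes, without the 8 genes of the gates. Ratios of single replicates used a prior count of 2. DESeq2 1.42.0, other gates and filters, thinning to 1000 UMIs and, chosen after seeing the data, a limit of 5 UMIs per gene and cell were the alternatives. The script was tested on simulated counts. Gene positions are from GENCODE M21, and 86 of 86 genes matched by symbol.

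The members, the 22 lists (374 genes), the motifs and the tests were chosen with earlier results of these data known. Named were the 15 higher and 10 lower genes of largest ratio with the same sign in both replicates and at least 40 UMIs, up to 4 called genes per list, 2 well-counted genes of lists with few calls, and 8 each way against CD3-negative cells. Some genes of the lists are counted in the lists' totals but not reported here by name.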

Additional observations from a re-analysis of the deposited data

How the results depend on the processing

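The counts of called genes depended on the fit and the gate. Against low cells, 101 genes were higher and 148 lower. With no replicate block these were 22 and 9, with DESeq2 54 and 50, with Gzma alone as the gate 42 and 83, with cells thinned to 1000 UMIs 50 and 81 (of 1383 genes tested) and with a Cd8 UMI required of both classes 26 and 40, and with no filter on low counts 230 were lower. Against CD3-negative cells, 67 were higher and 61 lower, with DESeq2 37 and 37, with no replicate block 14 and 13, with Gzma alone 21 and 26 and with thinned cells 8 and 20; 33 were higher with a gate of 4 UMIs and 38 with Ccl5 alone. The pairing is by construction, since the classes of a replicate come from 1 library. The share of members was 2.24% with a gate of 1 UMI, and 0.781% to 1.8% when either replicate was left out. Counts of calls without 1 replicate could not be fitted, as no residual degrees of freedom remain among samples.

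Egr1 turned to -0.68 with a gate of 4 UMIs, -0.41 with Ccl5 alone and -3.17 with Gzma alone, and Maf to 0.0233 with Gzma alone. Igkc turned to 0.0822 with counts held to 5 per cell. Without 1 replicate, Klrd1 ranged from -0.60 to 3.58 and Klre1 from -0.23 to 3.58, negative in replicate 2 alone. For Klrd1, replicate 2 had 0 member UMIs and 3 low-cell UMIs, so its value there rests on the prior count of 2. The cause of the other turns was not tested. Gzmb, Il21r, Gramd3, Il12rb2, Plac8, Xcl1, Blk, Gpr183, Il1r1 and Pxdc1 kept their calls against low cells under all 16 alternatives that tested them. Depth limits the rest: with 90 members, a gene absent from all of them can only be bounded.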
